A study of Mus musculus with 11 samples.

Results

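Claudins, occludin and ZO-1 were followed in the pancreas of mice with caerulein-induced acute pancreatitis. They comprise 9 genes of the tight junction, namely Cldn1, Cldn2, Cldn3, Cldn4, Cldn7, Cldn10, Cldn12, Ocln and Tjp1, of 19938 genes measured with a probe set that names 1 gene. Where a gene had several such probe sets, the one with the highest average signal across the 11 arrays stands for it, which concerned Cldn10, while the other 8 had 1. The genes were chosen by their caerulein and NaCl values on these same arrays, so the differences between the groups are given as a description without a test. All mice were wild-type C57Bl6J. The caerulein group (6 arrays) received 9 hourly intraperitoneal injections, and the series record states 50 mg/kg per injection, whose unit could not be verified here. The control group received sodium chloride (NaCl), with 5 arrays by the sample titles, whereas the series text counts 4 control mice. Age, sex and the time of tissue collection were not given in the sources used here. RNA came from whole pancreas, with 1 biotin-labelled Affymetrix array per sample and values on a log2 scale.

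Tight junctions seal the space between neighbouring epithelial cells near their apical surface, and in the pancreas they separate the lumen of acini and ducts from the tissue around them. Claudins are proteins with paired extracellular loops that polymerise into the strands of the junction, and the mix of claudins sets which ions and how much water can pass between cells. Occludin is a further strand protein, and ZO-1, the product of Tjp1, is a cytoplasmic scaffold that ties claudins and occludin to actin. Caerulein mimics the gut hormone cholecystokinin, and in excess it overdrives secretion by acinar cells, which make the digestive enzymes.

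In caerulein pancreas 6 of the 9 genes were higher on every array than on any NaCl array, namely Cldn4, Cldn7, Ocln, Tjp1, Cldn12 and Cldn3. Cldn10 was lower on every caerulein array. For Cldn1 and Cldn2 the arrays of the groups overlapped. Among all 19938 genes, 16.7% lay above and 20.6% below without overlap, and since the 9 genes were picked with these values in view, nothing is read from their count against that share. The median log2 difference of the 9 genes was 1.45, against -0.13 for all genes.

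**Figure D1:**
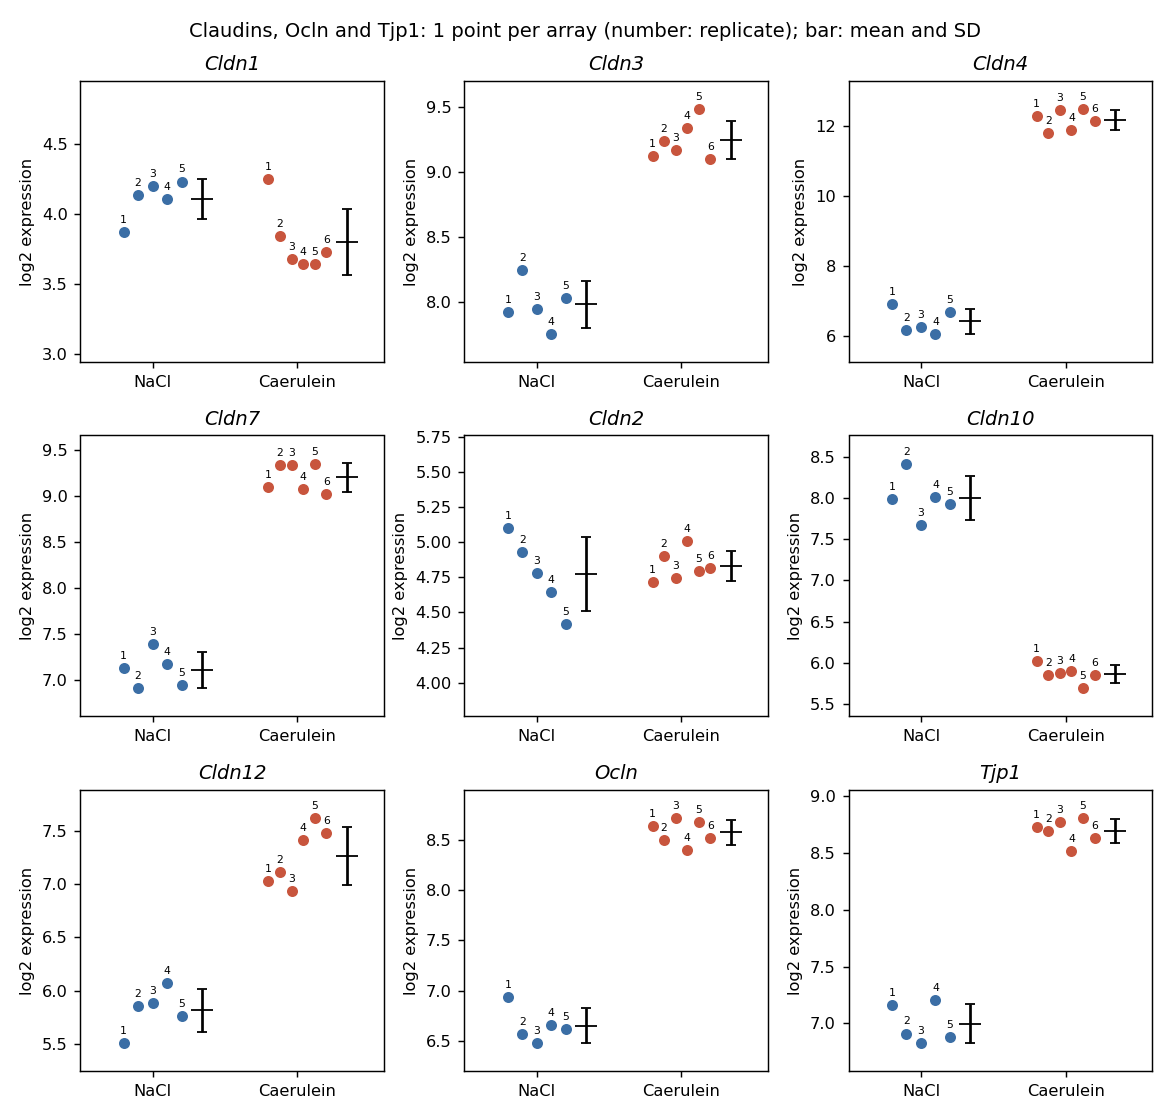
Log2 expression (vertical axis, with its own range in each panel) of the 9 genes on each NaCl array (blue, 5) and each caerulein array (red, 6), numbered by replicate, with the group mean and SD as a black bar. The groups do not overlap except in the panels of Cldn1 and Cldn2, and Cldn10 is the gene whose caerulein points all lie below the NaCl points.

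Cldn4 encodes a claudin of strands that limit the passage of ions between cells. Its log2 values in NaCl pancreas were 6.92, 6.19, 6.27, 6.07 and 6.69 in replicates 1 to 5. Caerulein arrays had a lowest value of 11.82, a median of 12.23 and a highest of 12.49. The lowest caerulein array thus lay 4.90 above the highest NaCl array. The difference in group means was 5.76 (SE 0.17), from 6.43 ± 0.36 (SD, n = 5) to 12.19 ± 0.29 (SD, n = 6), which is 54.3-fold, rank 1 of 19938 genes from the highest difference down.

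Cldn4 has a close relative, Cldn3, as its neighbour on chromosome 5, and the bases before their start sites are shown because the adjacent genes differed so much in size of change. The sequences are RefSeq promoters of assembly GRCm38.p6, cut to the 250 bases before the annotated start and written 5′ to 3′ on the strand of the gene. Capitals mark matches, on either strand, to the letters of an AP-1 site (TGANTCA), a cAMP response element (TGACGTCA), a TATA box (TATAAA) or a GC box (GGGCGG).
Cldn4, chr5:134946935-134947184, minus strand: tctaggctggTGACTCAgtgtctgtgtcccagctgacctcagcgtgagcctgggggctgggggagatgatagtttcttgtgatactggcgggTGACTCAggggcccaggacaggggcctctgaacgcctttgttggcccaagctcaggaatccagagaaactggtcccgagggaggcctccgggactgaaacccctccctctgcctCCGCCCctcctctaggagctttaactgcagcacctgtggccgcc
Cldn3, chr5:134985964-134986213, plus strand: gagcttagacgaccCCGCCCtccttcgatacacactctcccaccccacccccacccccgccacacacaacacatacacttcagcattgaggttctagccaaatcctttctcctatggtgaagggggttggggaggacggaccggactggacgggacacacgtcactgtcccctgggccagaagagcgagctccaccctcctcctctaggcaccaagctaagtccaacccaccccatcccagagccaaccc
The Cldn4 window held the AP-1 letters at 240 and at 158 bases before the start, both times as TGACTCA, and a GC box at 44. In the Cldn3 window only a GC box was found among these 4 motifs, at 236 bases before the start. Of the other 12 motifs searched, the Cldn4 window held the letters of a SNAI and ZEB E-box at 14 bases before the start, as did windows of Cldn7 and Ocln, and 17.2% of all windows. The Cldn3 window held the KLF letters CCACCC 5 times, and 28.1% of all windows held them at least 1 time. Of 32851 promoter windows of the same length, 6.75% held the AP-1 letters and 32.7% a GC box. Of the 14 start sites listed for the 9 genes, 1 had the AP-1 letters, that of Cldn4, and 10 had a GC box. Windows of neighbouring starts can overlap, and the same Cldn12 GC box was counted for more than 1 start. By gene, 8 of the 9 had a GC box.

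Cldn3 is likewise a claudin of sealing strands. It had NaCl values of 7.92, 8.25, 7.94, 7.75 and 8.03, and caerulein values with a lowest of 9.10, a median of 9.20 and a highest of 9.48. All caerulein arrays were higher, and the gap between the groups was 0.86. The difference was 1.26 (SE 0.10), or 2.40-fold. Cldn3 and Cldn4 are similar in sequence, and whether their probes cross-hybridise was not tested.

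None of the 6 other genes measured around this pair had a difference above 0.11. Mettl27, which lies next to Cldn4, had a difference of -0.26 (SE 0.06, limma adjusted p = 0.00395), and Abhd11, next to Cldn3, one of -0.17 (SE 0.07, limma adjusted p = 0.0871). Cldn13, a rodent claudin in the same cluster, differed by -0.17 (SE 0.13, limma adjusted p = 0.308). Stx1a, which encodes a syntaxin of vesicle fusion, and Tmem270 had differences of -0.37 and -0.45 (limma adjusted p = 0.00293 and 0.00106), and Bud23, an RNA methyltransferase gene, one of 0.11 (limma adjusted p = 0.161). Around all 9 genes, taking the 3 protein-coding genes on each side, 44 other genes were measured. Of these 8 were higher and 16 lower by limma, with a median of -0.16, against 20.3% of all genes called higher and 34.3% called lower. This look at neighbours was chosen after the data had been seen.

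Cldn7 encodes a claudin that binds EpCAM, an adhesion protein of simple epithelia. Its values were 7.12, 6.91, 7.39, 7.17 and 6.94 in NaCl, and in caerulein the lowest was 9.02, the median 9.22 and the highest 9.35. No array of one group reached the other, with a gap of 1.63. The difference was 2.10 (SE 0.10), or 4.29-fold. RefSeq lists 2 start sites for Cldn7. The window before the second is shown because it carried the only cAMP response element among the 14 start sites, 38 bases before the start, which 1.55% of all windows had.
Cldn7, second start, chr11:69965171-69965420, plus strand: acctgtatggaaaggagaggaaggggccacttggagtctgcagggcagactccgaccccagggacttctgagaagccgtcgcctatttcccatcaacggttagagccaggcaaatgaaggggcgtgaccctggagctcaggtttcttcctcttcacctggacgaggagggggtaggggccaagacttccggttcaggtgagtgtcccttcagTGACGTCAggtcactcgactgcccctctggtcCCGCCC
The next gene on one side, Elp5, which encodes a subunit of the Elongator complex, was itself higher by 1.68 (SE 0.10, limma adjusted p = 3.6e-08), while Slc2a4, the insulin-responsive glucose transporter gene on the other side, was lower by limma (-0.40, SE 0.10, adjusted p = 0.00770).

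Cldn1, another sealing claudin, had NaCl values of 3.87, 4.13, 4.20, 4.10 and 4.23. Its caerulein values had a lowest of 3.64, a median of 3.70 and a highest of 4.25. The highest value of all came from a caerulein array, replicate 1, so the groups overlapped, although the other 5 caerulein arrays lay between 3.64 and 3.84. The difference was -0.31 (SE 0.11) with all arrays and -0.40 without caerulein replicate 1. All 11 values were below the median of their array, and whether the probe set was above background is unknown.

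Cldn2 forms channels for small cations and water. In NaCl it read 5.10, 4.93, 4.78, 4.65 and 4.42, and in caerulein the lowest value was 4.72, the median 4.81 and the highest 5.01. The caerulein arrays lay inside the range of the NaCl arrays. The difference of 0.06 (SE 0.11) was smaller than the SD within NaCl (0.26). This gene, too, was below the array median on all 11 arrays, so the values do not show how much Cldn2 RNA either group held. Morc4, directly beside Cldn2, was higher by 2.11 (SE 0.14, limma adjusted p = 7.2e-08). On the other side Ripply1 had a difference of -0.15 (limma adjusted p = 0.149), and Tbc1d8b beyond it was lower, at -1.07 (SE 0.09, limma adjusted p = 8.4e-07).

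Cldn10 encodes ion-selective channel claudins, whose isoforms start from different first exons and prefer anions or cations. The gene read 7.98, 8.42, 7.67, 8.01 and 7.93 in NaCl, with a caerulein range from 5.69 to 6.03 and a median of 5.86. Every caerulein array was lower, by at least 1.64. The difference was -2.14 (SE 0.11), or 4.39-fold lower, rank 26 of 19938 genes from the lowest difference up. Another Cldn10 probe set gave NaCl values of 8.10, 8.38, 7.94, 8.11 and 8.06 and caerulein values from 5.56 to 5.91. There the difference was -2.43 (SE 0.09), and the groups were again apart, by 2.03. A further probe set, annotated to both Cldn10 and Dzip1, was not used. The probe sets were not assigned to isoforms, so which start of the gene the lower signal belongs to was not tested.

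RefSeq lists a pair of start sites for Cldn10, shown because they differ in base composition.
Cldn10, first start, chr14:118787621-118787870, plus strand: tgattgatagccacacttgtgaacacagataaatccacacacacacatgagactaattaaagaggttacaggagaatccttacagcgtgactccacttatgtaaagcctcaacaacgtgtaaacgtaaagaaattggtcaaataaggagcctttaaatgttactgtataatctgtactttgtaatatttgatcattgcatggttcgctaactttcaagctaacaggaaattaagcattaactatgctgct
Cldn10, second start, chr14:118854700-118854949, plus strand: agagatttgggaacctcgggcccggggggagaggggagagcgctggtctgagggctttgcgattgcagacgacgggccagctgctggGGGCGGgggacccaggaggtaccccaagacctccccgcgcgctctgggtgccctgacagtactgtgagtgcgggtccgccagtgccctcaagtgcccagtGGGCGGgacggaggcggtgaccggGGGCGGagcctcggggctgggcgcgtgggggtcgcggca
The window before the first start had 36.0% G and C and 4 CpG dinucleotides, with none of the 4 marked motifs. The second had 72.4% G and C, 22 CpG dinucleotides and GC boxes at 163, 63 and 39 bases before the start. Over all 32851 windows the median was 6 CpG dinucleotides, with quartiles of 2 and 16. Dnajc3, an endoplasmic reticulum co-chaperone gene that lies beyond Dzip1 from Cldn10, fell by 1.46 (SE 0.11, limma adjusted p = 2.2e-07), and Dzip1 and Abcc4, directly beside Cldn10, had differences of -0.07 and -0.04 (limma adjusted p = 0.477 and 0.791).

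Cldn12 encodes a claudin without the usual binding motif for ZO proteins at its end. Its NaCl values were 5.51, 5.86, 5.88, 6.07 and 5.76. In caerulein the lowest was 6.94, the median 7.26 and the highest 7.62, and the groups did not overlap. The difference was 1.45 (SE 0.13), or 2.73-fold. Within the caerulein group, replicates 4, 5 and 6 read 7.41, 7.62 and 7.48, above replicates 1, 2 and 3 at 7.03, 7.11 and 6.94. Among all genes 9.55% had their 3 highest caerulein values in replicates 4, 5 and 6. That share was the largest among the sets of 3 replicates seen for the 9 genes. Gjb2, Arhgef2 and Pkp2, described below, also had replicates 4, 5 and 6 highest, so this order was not particular to Cldn12.

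Ocln, the occludin gene, had NaCl values of 6.93, 6.57, 6.48, 6.66 and 6.62, and a lowest caerulein value of 8.40, a median of 8.58 and a highest of 8.72. The groups were 1.47 apart at their closest. The difference was 1.92 (SE 0.09), or 3.79-fold. Marveld2, the neighbouring gene, encodes tricellulin, a relative of occludin at corners where 3 cells meet, and its difference of 0.26 did not pass (SE 0.11, limma adjusted p = 0.0676). Taf9, a transcription factor subunit gene a little further along, rose by 1.32 (SE 0.13, limma adjusted p = 3.0e-06).

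Tjp1 read 7.16, 6.91, 6.83, 7.20 and 6.88 in NaCl, with a lowest caerulein value of 8.51, a median of 8.71 and a highest of 8.81. Again all caerulein arrays were above all NaCl arrays, by at least 1.31. The difference was 1.69 (SE 0.09), or 3.23-fold. Near Tjp1, Tm2d3 was lower, at -0.57 (SE 0.07, limma adjusted p = 1.9e-05), and Pcsk6 higher by 0.48 (SE 0.09, limma adjusted p = 7.1e-04). The plot of differences sets the 9 genes side by side.

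**Figure D2:**
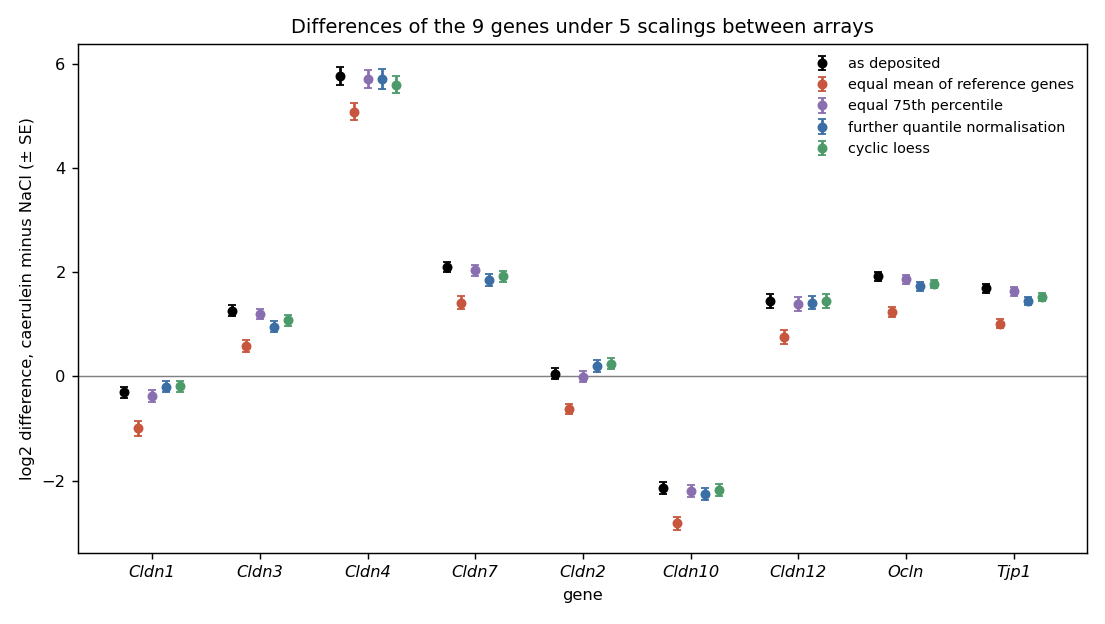
Log2 difference between caerulein and NaCl means (vertical axis) with its standard error for the 9 genes, as deposited (black) and after 4 other ways of scaling the arrays (colours). Cldn4 stays between 5.08 and 5.76 and Cldn10 between -2.82 and -2.14, while the sign of Cldn2 changes with the scaling.

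The size of these differences depended on how the arrays were made comparable. When each array was shifted to an equal mean of 14 reference genes, the median of all probe sets moved from -0.11 to -0.79 and the 9 differences moved down with it, to leave Cldn3 at 0.58, Cldn12 at 0.76, Tjp1 at 1.01, Ocln at 1.24, Cldn7 at 1.42 and Cldn4 at 5.08. The reference genes were not steady themselves, since 8 of the 14 were higher by limma, among them Actb by 2.93 (adjusted p = 1.4e-10). Cldn2 was -0.63 with that scaling, -0.0056 with equal 75th percentiles, 0.20 after a further quantile normalisation and 0.24 after cyclic loess. The other 8 genes kept their sign under these 4 scalings.

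Replicates of one group also differed from each other, and 3 of the 9 genes had the same highest caerulein arrays. In caerulein, replicates 1, 3 and 5 held the 3 highest values of Cldn4 (12.30, 12.48 and 12.49), of Ocln (8.63, 8.72 and 8.68) and of Tjp1 (8.72, 8.77 and 8.81). The same 3 arrays were highest for 5.08% of all genes. For Tjp1, replicate 2 at 8.69 lay close below replicate 1. Each of the other genes had a set of highest arrays of its own. For Cldn7 and Cldn3 replicate 6 was lowest (9.02 and 9.10). The spread within caerulein was widest for Cldn4 (SD 0.29) and Cldn12 (SD 0.27) and narrowest for Tjp1, Cldn2 and Cldn10 (SD 0.11 each).

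**Figure D3:**
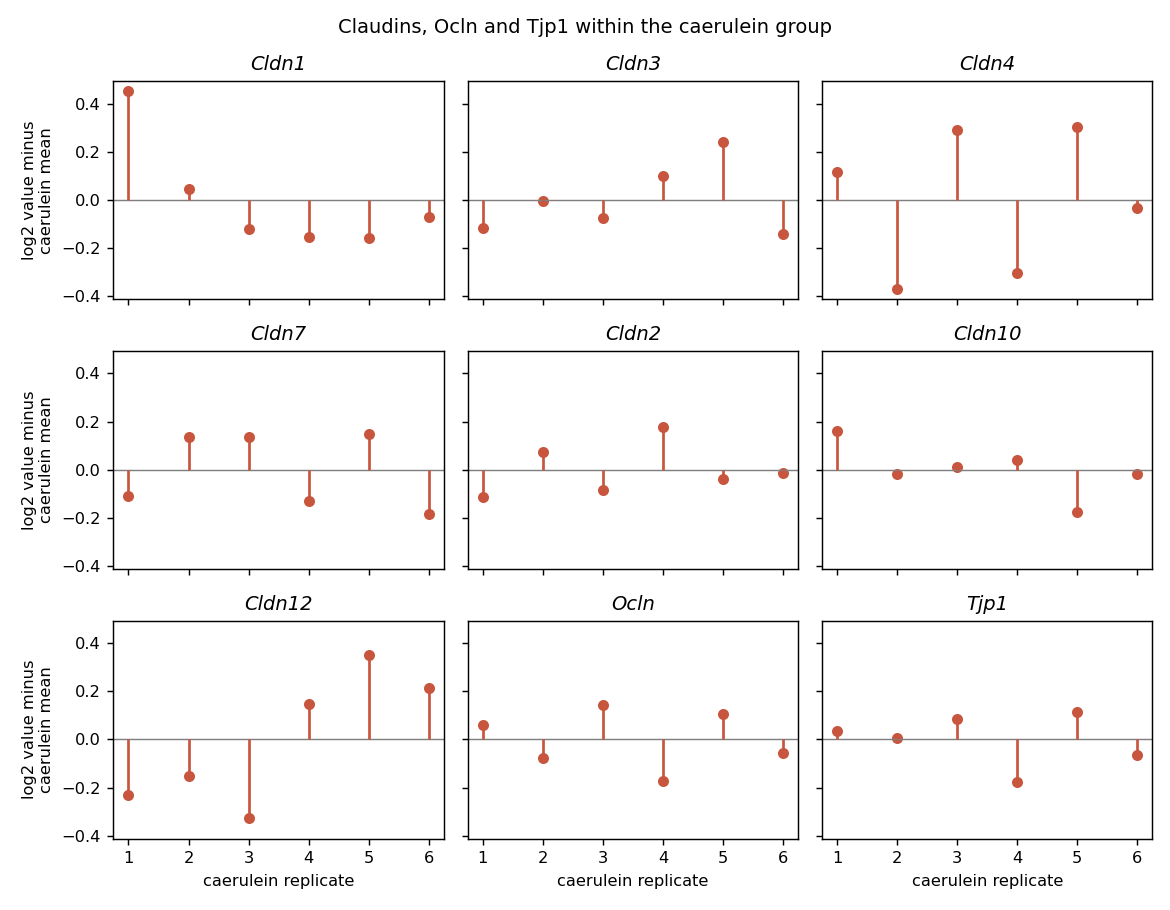
Log2 value of each caerulein array minus the caerulein mean of the gene (vertical axis) against the replicate number (horizontal axis), 1 panel per gene. Replicates 1, 3 and 5 are the 3 highest for Cldn4, Ocln and Tjp1, replicates 4, 5 and 6 for Cldn12, and replicate 1 stands apart for Cldn1.

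The genes closest to Cldn4 in their pattern were Rcan1, Itpkc, Krt19, Akr1b8 and Krt8, by the root-mean-square distance over the 11 arrays after each gene's NaCl mean was subtracted. Genes named only by a Gm number were left out of this ranking. Rcan1, a regulator of calcineurin, was nearest at 0.41 log2 units. Its caerulein values ran from 11.82 to 12.14 and its NaCl values from 6.18 to 6.98. The distances of Itpkc, an inositol trisphosphate kinase gene, of the keratin genes Krt19 and Krt8 and of the aldo-keto reductase gene Akr1b8 lay between 1.03 and 1.09. A small distance requires a caerulein difference near that of Cldn4, so the differences of these 5 genes, from 4.34 for Krt8 to 5.40 for Rcan1, follow from how they were chosen and carry no test.

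The rest of the junction was taken from 8 lists drawn up from general knowledge of epithelial junctions, of which 120 genes were measured. Earlier results of these data were known when the lists were drawn up, so the lists cannot be called independent of these values. By limma over all probe sets (adjusted p under 0.05), 48 were higher, 31 lower and 41 did not pass, with a median difference of 0.14. Of all 19938 genes 20.3% were called higher and 34.3% lower, and of all 35556 probe sets 16.4% and 27.8%. The 48 and 31 became 51 and 23 after a further quantile normalisation, where 19.3% of all genes were higher and 23.4% lower. They became 52 and 19 after cyclic loess, where the shares were 21.9% and 18.2%. An equal mean of the reference genes lowers every difference by the same amount and so turns small positive differences negative by its construction. It gave 31 and 75 here, against 6.84% higher and 85% lower among all genes, and the counts with the reference genes given for each list are to be read against those shares.

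**Figure D4:**
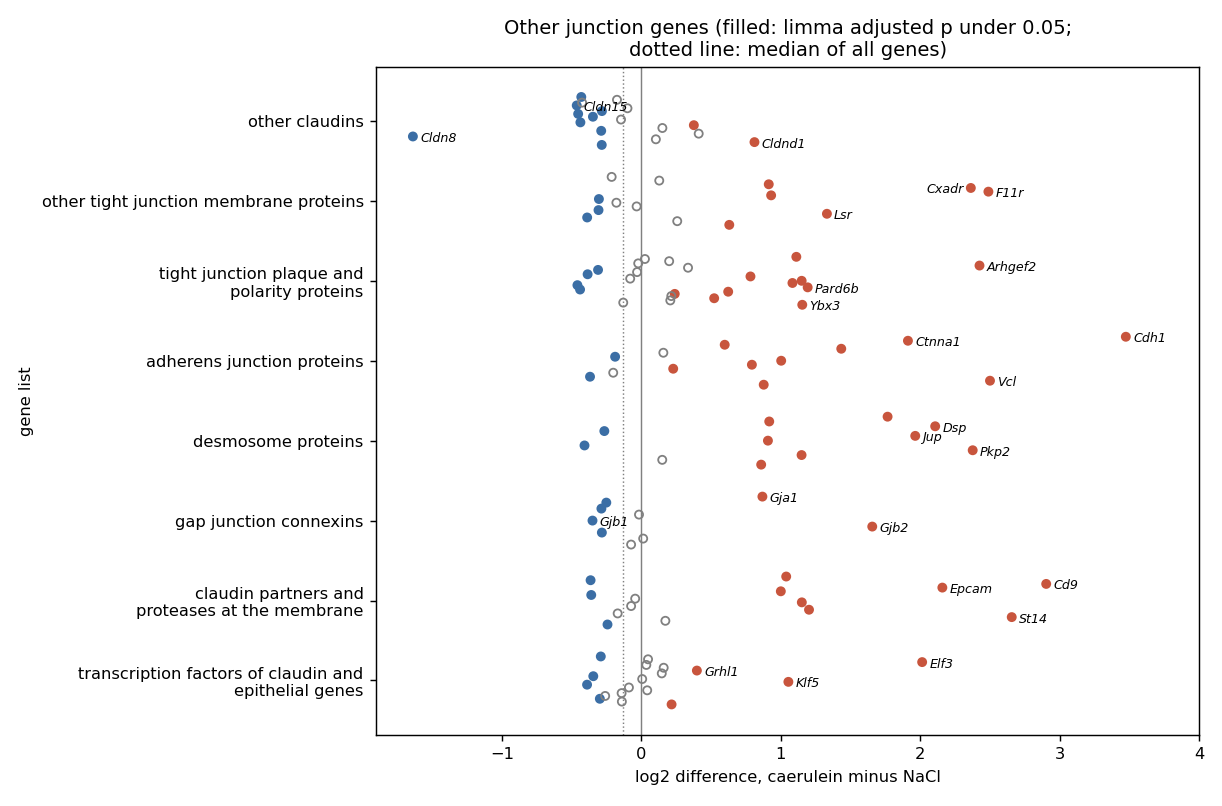
Log2 difference between caerulein and NaCl (horizontal axis) of the 120 other junction genes in 8 lists (vertical axis), filled red or blue where limma's adjusted p was under 0.05 for a higher or lower value and open otherwise. Cdh1 lies farthest right at 3.47 and Cldn8 farthest left at -1.64, and the dotted line is the median of all genes, -0.13.

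The 18 other claudins and claudin-domain genes had 2 called higher, 9 lower and a median of -0.28. They are the claudins that were not picked among the 9, so their direction is not independent of that choice. Cldn8, a claudin known from the distal tubules of the kidney, had the largest change. It read 6.36, 6.41, 6.31, 5.96 and 6.03 in NaCl and from 4.46 to 4.85, with a median of 4.51, in caerulein. No arrays overlapped, and it fell by 1.64 (SE 0.10, limma adjusted p = 6.5e-08). Its 6 caerulein values were below the median of their array, and whether they were above background is unknown. Cldn15, a cation channel claudin of the gut, fell by 0.46 (SE 0.07, limma adjusted p = 1.2e-04). Cldnd1 was higher by 0.81 (SE 0.09, limma adjusted p = 7.5e-06), although not with an equal mean of the reference genes (0.13, adjusted p = 0.208). Of these 18 genes, 6 lay below the array median on all arrays. After cyclic loess 3 were higher and 6 lower. With the reference genes 0 were higher and 16 lower, a share near the 85% lower among all genes.

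Other membrane proteins of the tight junction numbered 14, with 6 higher, 3 lower and a median of 0.19. F11r, which encodes the adhesion molecule JAM-A, rose 5.61-fold, with NaCl arrays at 7.06 ± 0.07 (SD, n = 5) and caerulein arrays at 9.55 ± 0.09 (SD, n = 6; limma adjusted p = 3.3e-11). Cxadr, the coxsackievirus and adenovirus receptor, rose 5.14-fold (log2 difference 2.36, SE 0.08, limma adjusted p = 4.9e-10). Lsr, which encodes angulin-1 of tricellular junctions, rose 2.51-fold (1.33, SE 0.10, limma adjusted p = 4.0e-07). With the reference genes these 3 remained positive, and the list had 4 higher and 8 lower.

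In the plaque under the membrane and the polarity complexes, 10 of 23 genes were called higher and 4 lower (median 0.21). Arhgef2, a RhoA activator that cingulin holds at the junction, rose 5.37-fold (2.42, SE 0.13, limma adjusted p = 1.1e-08). Pard6b, a polarity protein, and Ybx3, a Y-box factor that binds ZO-1, rose by 1.19 and 1.15 (SE 0.12 and 0.06, limma adjusted p = 5.1e-06 and 1.2e-08). Tjp3, which encodes the relative ZO-3, had a difference of -0.13 (limma adjusted p = 0.185), and Cgn, the cingulin gene, one of 0.33 (limma adjusted p = 0.083), both named after their values were seen. The list gave 6 higher and 13 lower with the reference genes.

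Adherens junctions and desmosomes bind the same lateral membranes together below the tight junction. Of 13 adherens junction genes 9 were called higher and 2 lower (median 0.79). Cdh1, which encodes E-cadherin, rose 11.1-fold, from 8.14 ± 0.12 (SD, n = 5) to 11.61 ± 0.05 (SD, n = 6; limma adjusted p = 7.2e-12). Vcl, the vinculin gene, and Ctnna1, which encodes alpha-catenin, rose by 2.50 and 1.91 (SE 0.09 and 0.07, limma adjusted p = 5.9e-10 and 9.2e-10). Of 11 desmosome genes 8 were called higher and 2 lower (median 0.92). Pkp2, the plakophilin gene, rose by 2.38, Dsp, the desmoplakin gene, by 2.11, and Jup, the plakoglobin gene, by 1.96 (limma adjusted p = 7.0e-09, 2.5e-09 and 4.5e-09). The reference genes gave 5 higher and 5 lower for adherens junctions and 6 and 3 for desmosomes.

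Gap junction channels, which couple the cytoplasm of acinar cells, were measured through 9 connexin genes, with 2 called higher, 4 lower and a median of -0.07. Gjb2, which encodes connexin 26, rose 3.15-fold (1.66, SE 0.20, limma adjusted p = 2.3e-05). Gjb1, which encodes connexin 32, fell by 0.35 (SE 0.08, limma adjusted p = 0.00272). Gja1, the connexin 43 gene, was higher by 0.87 (SE 0.12, limma adjusted p = 9.8e-05), a call that ended with the reference genes (0.18, adjusted p = 0.222). The connexins had 1 called higher and 7 lower with the reference genes, and 2 and 1 after cyclic loess.

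Among 14 membrane partners of claudins and their proteases, 7 were called higher and 3 lower (median 0.59). Epcam, whose product binds claudin-7, rose 4.46-fold (2.16, SE 0.12, limma adjusted p = 2.1e-08). St14 encodes matriptase, a protease that cleaves EpCAM, and rose 6.30-fold (2.66, SE 0.09, limma adjusted p = 3.3e-10). Cd9, a tetraspanin gene, rose 7.48-fold (2.90, SE 0.07, limma adjusted p = 1.1e-11). All 3 stayed positive with the reference genes, where the list had 7 higher and 7 lower.

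Of 18 transcription factors of epithelial genes 4 were called higher and 4 lower (median 0.02). With the reference genes 2 were higher and 16 lower, again near the 85% lower among all genes. Elf3, an ETS factor of epithelia, rose 4.04-fold (2.01, SE 0.10, limma adjusted p = 5.7e-09), and Klf5, a Krüppel-like factor, 2.08-fold (1.05, SE 0.12, limma adjusted p = 1.4e-05). Grhl1, a grainyhead factor, was higher by 0.40 (SE 0.11, limma adjusted p = 0.0114) as deposited, although its groups overlapped. Its difference was -0.29 with the reference genes (limma adjusted p = 0.0274), where the shift common to all genes exceeds 0.40. Grhl2, Ehf and Klf4 did not pass, at 0.15, 0.05 and 0.0059 (limma adjusted p = 0.357, 0.755 and 0.965). Hnf4a was lower, at -0.34 (limma adjusted p = 0.00376), and these genes were named after their values were seen. The list held 5 repressors of E-cadherin and other epithelial genes, all named after their values were seen. Snai1, Snai2 and Zeb1 had differences of 0.04, -0.14 and -0.14 (limma adjusted p = 0.759, 0.301 and 0.122). Zeb2 was higher by 0.22 and Twist1 lower, at -0.30 (limma adjusted p = 0.0349 and 0.00556).

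The arrays came from whole tissue, so fewer or more cells of a type and less or more RNA per cell cannot be told apart. The pancreas label was checked on 7 acinar markers, whose mean level was 11.9 to 12.2 in NaCl and 11.5 to 11.7 in caerulein. Of those markers 1 was higher and 2 lower. Duct markers were split, with 3 of 8 higher and 3 lower, and a list mean of 6.64 to 6.80 in NaCl and 7.30 to 7.50 in caerulein. The keratin genes Krt19 and Krt7 were higher by 4.39 and 1.94, and Cftr, the chloride channel gene of ducts, by 0.44 (limma adjusted p = 1.0e-11, 3.0e-07 and 0.00271). Muc1, a mucin gene, and the transcription factor gene Onecut1 had differences of -1.14 and -0.66, and Prom1 one of -0.20 (limma adjusted p = 1.2e-07, 3.9e-05 and 0.0419). Sox9 and Slc4a4 did not pass, at 0.41 and 0.07 (limma adjusted p = 0.0598 and 0.474). Macrophage markers had 7 of 10 higher and 0 lower, with a list mean of 5.65 to 5.74 in NaCl and 6.32 to 7.11 in caerulein. Endothelial markers had 3 of 10 higher and 2 lower, and fibroblast markers 4 of 10 and 1. Neutrophil markers had 1 of 10 higher and 1 lower, and mesothelial markers 1 of 10 and 2. The gene of the mesothelial list called higher was the keratin gene Krt18, at 4.03 (limma adjusted p = 8.7e-12), while the list median was -0.17. The keratin gene Krt8 differed by 4.34, and which cells the Krt18 signal came from was not tested. Islet markers had 3 of 9 lower and lymphocyte markers 6 of 9 lower, with 0 higher in either list. The counts of all these marker lists are to be read against 20.3% of all genes called higher and 34.3% called lower. With the reference genes the macrophage list had 4 higher and 4 lower, the endothelial list 0 and 10 and the lymphocyte list 0 and 9, against 6.84% higher and 85% lower among all genes. After cyclic loess 1 lymphocyte marker was lower, where 18.2% of all genes were called lower. The part of these cell types in the claudin values was not tested.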

How the data were processed

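Total RNA from pancreas, with degraded RNA excluded before labelling per the labels' protocols, was measured on 11 arrays, 5 NaCl and 6 caerulein by the sample titles. The authors deposited log2 expression values for 35556 probe sets, made with RMA and the R packages oligo and limma per the submitters' processing notes. Versions and a genome build were not given in the sources used here. Array medians were 5.35 to 5.40 in NaCl and 5.20 to 5.25 in caerulein. No detection calls were analysed, so dim probe sets may lie at background, and levels of different genes were not compared. Arrays of one group correlated at 0.981 to 0.991, and arrays of different groups at 0.938 to 0.955. The series text counts 4 control mice against 5 NaCl arrays, and the sample labels do not say that samples are separate mice. The p-values therefore reflect only the spread between these samples. Precision is limited by having 11 arrays.

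In the platform annotation 21789 probe sets carried 1 symbol, 1621 several and 12146 none. Entrez identifiers matched 21698 of the single-symbol probe sets to RefSeq (GRCm38.p6), which renamed 0. The groups were compared two-sided, without covariates, by lmFit and eBayes of limma 3.58.1 (R 4.3.3), with Benjamini-Hochberg adjustment over all probe sets and a threshold of 0.05. The fit was tested on simulated data. A further quantile normalisation, cyclic loess, equal 75th percentiles and an equal mean of 14 reference genes were tried, as were other variance settings, a filter on the dimmer 50 percent, the replicate number as a block and leaving out each array.

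The 9 genes, the gene lists and the rules were chosen with earlier results of these data known. The text names all 9 genes and the 3 called genes of largest change in each junction list (in a list with none called, the gene with the smallest p). It also names the 5 genes nearest Cldn4, with genes named only by a Gm number left out. Motifs were searched in 250 bases before 32851 RefSeq starts, on both strands and with overlaps counted. The 16 motifs were AP-1, written TGANTCA, the E-box of SNAI and ZEB factors, written CAGGTG, the grainyhead motif AACNNGTT, the GC box GGGCGG, the TATA box TATAAA, the ETS motif GGAAGT, the GATA motif AGATAA, the cAMP response element TGACGTCA, the KLF motif CCACCC, the C/EBP motif TTGCGCAA, the NFAT motif GGAAAA, the STAT motif TTCNNNGAA, the TEAD motif GGAATG, the CDX motif TTTATG, and the HNF1 and NF-kB motifs. A match is a description of letters and not evidence of a bound site, and motifs, neighbours and replicate order were looked at after the data had been seen.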

Additional observations from a re-analysis of the deposited data

Results flagged for a closer look

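In 4 of 76 groups of arrays checked for the genes named above, 1 array stood apart from the others by the gap to its nearest neighbour over the range of the group, a test that chance alone passes in about 1 of 20 groups. For Cldn1, caerulein replicate 1 was at 4.25, while the other caerulein arrays lay between 3.64 and 3.84. For Cxadr, NaCl replicate 1 was at 6.38, against 6.18 to 6.23 in the other NaCl arrays. For Dsp, caerulein replicate 5 was at 9.52, against 9.08 to 9.24. For Gjb1, NaCl replicate 5 was at 7.74, against 7.98 to 8.07, and its groups overlapped.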

How the results depend on the processing

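With an equal mean of the reference genes, 1873 probe sets were called higher and 30291 lower, against 5829 and 9884 as deposited, and 31 and 75 of the other junction genes. The differences there were -0.99 for Cldn1, 0.58 for Cldn3, 5.08 for Cldn4, 1.42 for Cldn7, -0.63 for Cldn2, -2.82 for Cldn10, 0.76 for Cldn12, 1.24 for Ocln and 1.01 for Tjp1, and Grhl1 reversed to -0.29. After a further quantile normalisation Cldn3 was at 0.96, Cldn7 at 1.85, Ocln at 1.73 and Tjp1 at 1.45. After cyclic loess they were at 1.08, 1.92, 1.77 and 1.53, with 5467 probe sets and 19 other junction genes called lower. With a filter that left out the dimmer 50 percent, 6446 of 17778 probe sets were called lower, and Cldn1 and Cldn2 had no value. The other Cldn10 probe set gave -2.43. The remaining alternatives moved no difference of the 9 genes by more than the SD between replicates and no count by more than 1.5 times. They were equal 75th percentiles, a trended robust prior, array weights, no moderation and group medians.

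With the replicate number as a block, over the 5 numbers both groups share, 5452 probe sets were higher and 7909 lower, and 47 and 27 of the other junction genes. No clear pairing of the samples by number was seen, although these values cannot exclude it. Deviations of same-numbered arrays correlated between -0.0517 and 0.0597, and 2 of the 5 numbers correlated best with their own. Leaving out each array in turn gave -0.40 to -0.28 for Cldn1, 1.21 to 1.33 for Cldn3, 5.67 to 5.89 for Cldn4, 2.05 to 2.17 for Cldn7, -0.03 to 0.14 for Cldn2, -2.22 to -2.03 for Cldn10, 1.37 to 1.51 for Cldn12, 1.88 to 1.99 for Ocln and 1.65 to 1.74 for Tjp1, with 47 to 49 other junction genes higher and 25 to 31 lower. Depth is not defined for arrays, and signal over background was not analysed here. The cause of these shifts was not tested.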
